A study of Mus musculus with 4 samples.

Results

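Peaks of H1foo, the linker histone of the oocyte, and of AE4, an antibody used for somatic H1, were described at 8 genes of the LIF and Stat3 pathway in mouse embryonic stem cells. The genes were Lif, Lifr, Il6st, Jak1, Stat3, Socs3, Pim1 and Gbx2, taken by name from 21774 protein-coding genes on the assembled chromosomes. They were chosen with earlier results of these data known, so their shares beside those of all genes are descriptions. For each gene, peaks were counted in a window that ran from 5 kb before to 5 kb after its RefSeq span in mm10, with at least 1 bp in common. The cells came from strain 129S4/SvJae, overexpressed mouse H1foo as a fusion with GFP and received no treatment. Both antibodies were used on these same cells: a rabbit polyclonal antibody against H1foo made in-house (2 libraries) and the mouse monoclonal antibody AE4 (2 libraries). Cells without the overexpressed H1foo were not analysed here. The data are 1 peak list per antibody, with 97825 peaks for H1foo and 47493 for AE4. They hold no value per library, so no difference below has a replicate error or a test over samples. The read depth behind the lists is unknown, and a longer list gives more peaks at any gene, so numbers of the 2 antibodies are not read as amounts of protein.

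Linker histone H1 binds the nucleosome where DNA enters and leaves it and is known for its part in compacting chromatin. H1foo is the variant of the oocyte and early embryo, whereas stem cells normally carry somatic variants. LIF is the cytokine that keeps mouse embryonic stem cells self-renewing in culture. It joins the receptor LIFR to gp130, the product of Il6st, and the kinase JAK1 bound to these chains phosphorylates STAT3, which enters the nucleus and switches on its targets. SOCS3 is one of these targets and shuts the receptor down again. Pim1, a kinase gene, and Gbx2, a homeobox gene, are further targets of STAT3 that can help to sustain self-renewal in mouse stem cells.

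The windows of the 8 genes held 58 H1foo peaks and 13 AE4 peaks. All 8 genes had at least 1 H1foo peak, where 62.6% of all protein-coding genes did. The median window was 38.9 kb for the 8 genes and 27.2 kb over all genes, and a longer window can hold more peaks. AE4 peaks were present at 4 of the 8, at Lif, Lifr, Il6st and Stat3, where 51.0% of all genes had one, so the AE4 share was close to the background. Each of these 4 also had H1foo peaks, and peaks of both lists were found at 46.8% of all genes. The other 4, Jak1, Socs3, Pim1 and Gbx2, had H1foo peaks and no AE4 peak, a pattern found at 15.8% of all genes. With a flank of 10 kb in place of 5 kb, AE4 peaks were present at 7 of the 8, all but Jak1. The share of all genes is not given at that flank, so 7 of 8 is not set against 51.0%. The number of H1foo peaks was 12 at Stat3, 11 at Lif, 11 at Lifr, 9 at Il6st, 6 at Gbx2, 4 at Socs3, 3 at Jak1 and 2 at Pim1. The number of AE4 peaks was 9 at Stat3, 2 at Lifr, 1 at Lif and 1 at Il6st. Stat3 thus held most of the AE4 peaks of the group. Its first place for H1foo depends on the window. With no flank Stat3 had 7 H1foo peaks, Lifr 11 and Lif 9, and with a flank of 10 kb Stat3 had 14 and Lif 15.

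Windows differ in length, from 13215 bp at Gbx2 to 123309 bp at Jak1, and the order of the genes changed when peaks were counted per length. H1foo density was 4.54 peaks per 10 kb of window at Gbx2, 4.41 at Lif, 2.81 at Socs3, 1.91 at Stat3, 1.70 at Il6st, 1.30 at Pim1, 0.941 at Lifr and 0.243 at Jak1. The first place of Gbx2 depends on the window, as its peaks lay on the flanks and it had 0 with no flank. The median over the 8 genes was 1.81 peaks per 10 kb, against 0.388 over all protein-coding genes, and Jak1 was the member below that background median. For AE4 the median density was 0.0856 peaks per 10 kb over the 8 genes and 0.0403 over all genes. With so few AE4 peaks this median lies between 0 and the value of Lifr, and it says nothing of enrichment.

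**Figure D1:**
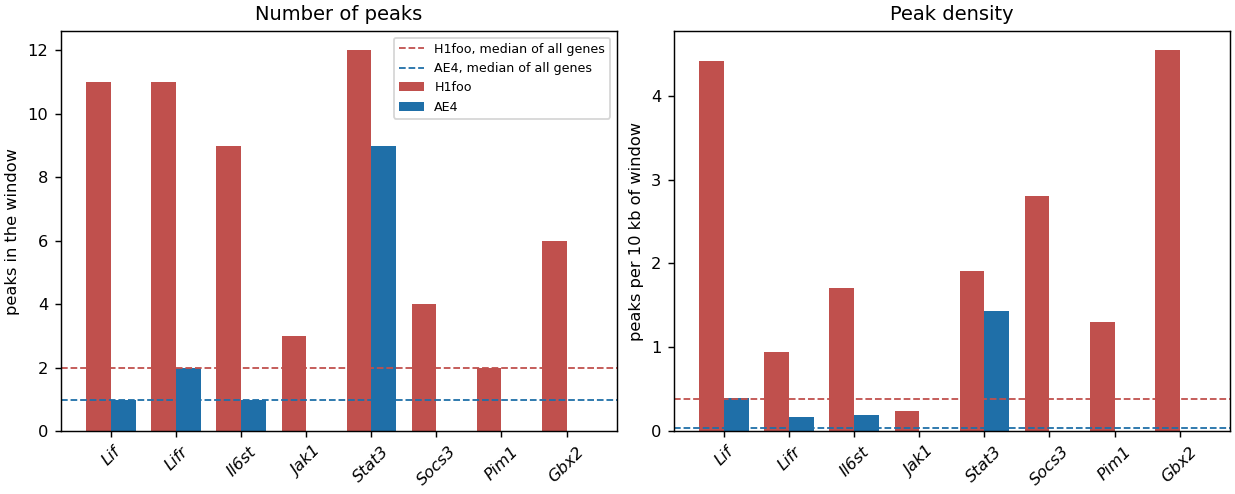
Number of peaks (left) and peaks per 10 kb of window (right) at each of the 8 genes, with H1foo bars in red and AE4 bars in blue. Dashed lines give the median over 21774 protein-coding genes. H1foo bars stand above the AE4 bars at every gene, and Jak1 is the member below the H1foo median in density, at 0.243 peaks per 10 kb against 0.388.

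Lif, the ligand, was among the genes most densely covered by H1foo. Its 11 H1foo peaks lay along the whole gene, 1 upstream of it, 9 in it and 1 downstream, and covered 35.2% of the window. Of all protein-coding genes, 6.42% reached its density. The H1foo peak that was both the widest and the highest in score, at chr11:4263945-4265215, spanned 1271 bp with a score of 206. The score is the authors' own value for each peak, with a lowest value of 50 in both lists, and it is used here to order peaks within a list. In all, 4 of the Lif peaks were 1 kb or wider, and the same 4 had the scores above 100, at 206, 173, 152 and 127. The longest stretch of the gene without an H1foo peak was 1690 bp. The single AE4 peak, 488 bp wide with a score of 58.5, lay downstream of the gene at chr11:4275975-4276462. It overlapped no H1foo peak, and the nearest one was 1135 bp away.

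The 2 receptor genes had similar numbers of H1foo peaks spread over longer spans. Lifr, the receptor chain specific for LIF and a few related cytokines, had 11 H1foo peaks. One of 779 bp, with a score of 80.5, lay across the 5′ end of the RefSeq span. A cluster of 6 was found in the 13874 bp of chr15:7140774-7154647. It begins with the widest and highest-scoring peak of the gene (1092 bp, score 144), 182 bp past the second of the 2 Lifr promoter sequences annotated by RefSeq. A stretch of 30623 bp just before the cluster, 28.7% of the gene, carried no peak of either list. Its AE4 peaks, of 597 bp with a score of 80.2 and of 511 bp with a score of 61.95, lay 487 and 817 bp from the nearest H1foo peak and overlapped none.

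Il6st encodes gp130, the chain shared by the receptors of the interleukin 6 family. Its 9 H1foo peaks comprised 1 upstream, 7 in the gene and 1 downstream, with scores between 50.7 and 127.5. The highest-scoring and widest was at chr13:112477309-112478099 (791 bp). The single AE4 peak of the window, at chr13:112479919-112480303 (385 bp, score 74.3), followed it after 1819 bp without overlap.

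Jak1, the kinase and the longest gene of the group, carried 3 H1foo peaks in a window of 123309 bp. Their scores were 51.6, 72.2 and 88.2, and the last of these, at chr4:101155652-101156326, was also the widest with 675 bp. It lay near the 3′ end of the gene. Of all protein-coding genes, 55.0% had at least this H1foo density. No AE4 peak fell in the window, and the nearest AE4 peaks were between 36230 and 110541 bp from the H1foo peaks. The span of the neighbouring gene Raver2 overlaps that of Jak1 by 397 bp at their 3′ ends, and no peak of either list in the Jak1 window touched Raver2.

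Stat3 encodes the transcription factor at the centre of the pathway. With the 5 kb flank it was the member where peaks of the 2 antibodies met. Of its 12 H1foo and 9 AE4 peaks, 7 of each lay at least in part in the gene. The peaks crowded at its 3′ end, which faces the 3′ end of Stat5a across 1636 bp. From the outer edge of the window to 6 kb inside the 3′ end of Stat3 there were 7 H1foo and 6 AE4 peaks. Of the H1foo peaks, 3 lay over Stat5a itself, so they are not peaks of Stat3 alone. The highest-scoring and widest H1foo peak of the window, of 1353 bp and with a score of 179, was one of these. The highest-scoring AE4 peak, with 107.6, lay in the interval between the genes. The widest AE4 peak, of 623 bp and with a score of 60.98, lay in Stat3.

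Each of the 3 peaks shared by the lists in the windows of the 8 genes was at this 3′ end. Between the genes, the H1foo peak chr11:100885269-100885884 (score 110.7) and the AE4 peak chr11:100885326-100885923 (score 107.6) had 559 bp in common, or 90.7% of the H1foo peak and 93.5% of the AE4 peak. At the boundary of Stat3, chr11:100886684-100887172 of H1foo (score 78.5) and chr11:100886495-100886913 of AE4 (score 69.6) had 230 bp in common. Just inside the gene, chr11:100887374-100887936 of H1foo (score 127) and chr11:100887662-100888048 of AE4 (score 55.5) had 275 bp in common. The first pair had centres 48 bp apart, while the others were offset by 224 and 200 bp. At the start of the gene the lists differed. An H1foo peak of 422 bp with a score of 51.5, which also overlapped the lncRNA gene Gm46295, lay 233 bp from the Stat3 promoter sequence, and the nearest AE4 peak was 3170 bp from that sequence.

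**Figure D2:**
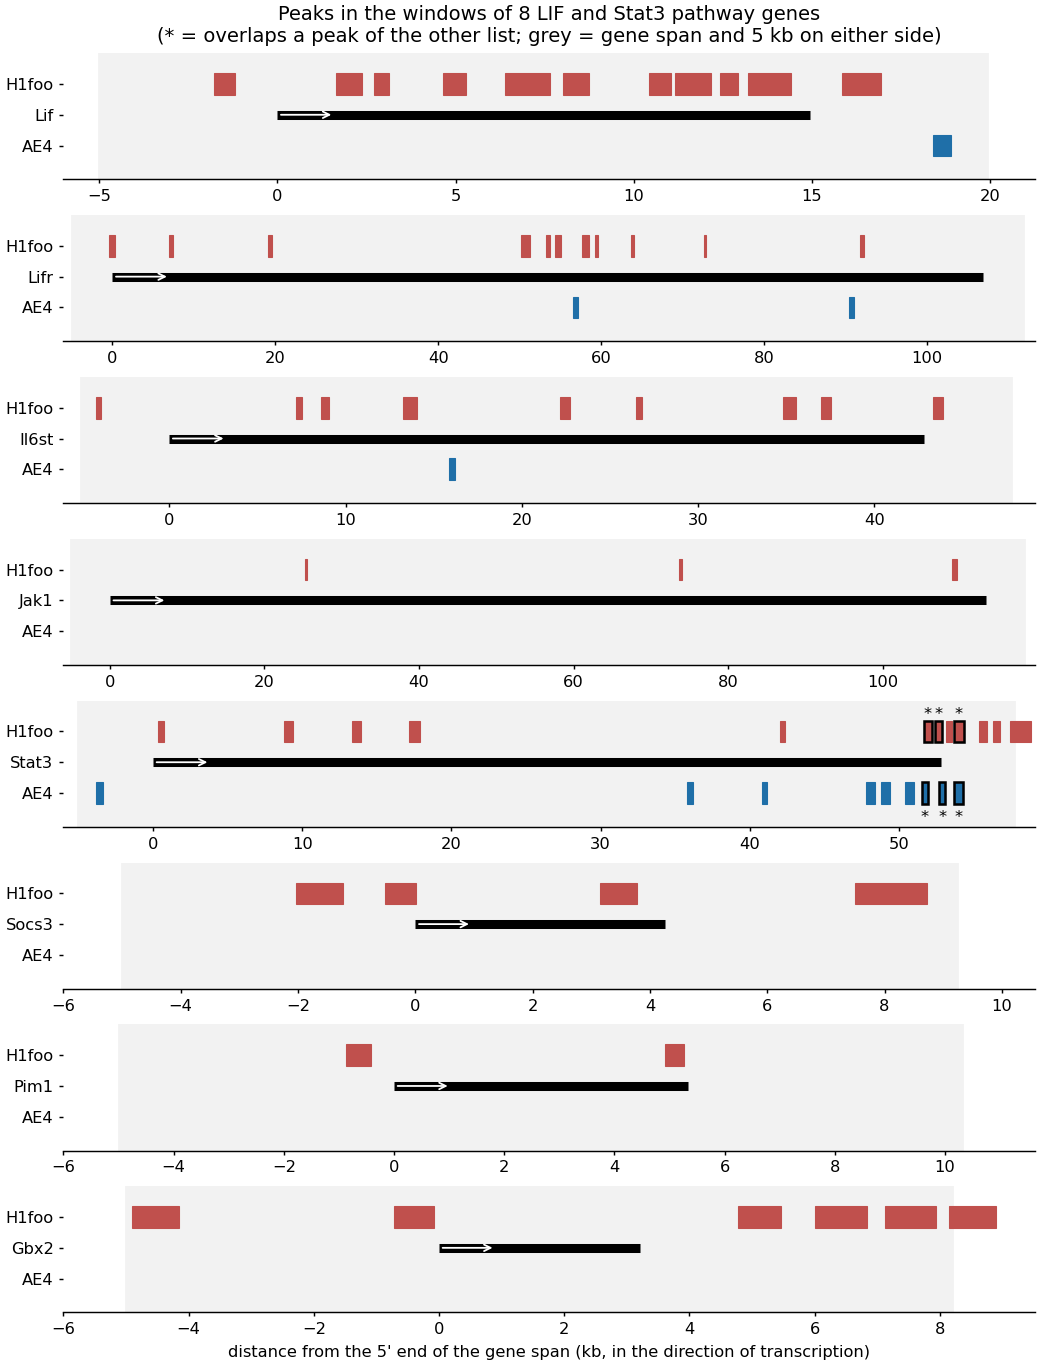
Position of every H1foo peak (red, above the gene) and AE4 peak (blue, below it) in the 8 windows, in kb from the 5′ end of the gene span and in the direction of transcription, with a scale of its own for each gene. Asterisks and black outlines mark the 3 H1foo and 3 AE4 peaks that overlap the other list, all at the 3′ end of Stat3.

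Socs3, the feedback inhibitor, had 4 H1foo peaks and no AE4 peak. One H1foo peak, 800 bp wide with a score of 75.3, lay upstream of the gene, and one with a width of 523 bp and a score of 64.4 lay across the 5′ end of its span. Another, 622 bp wide with a score of 84.6, lay in the gene, and the last, 1225 bp wide with a score of 57.25, lay downstream. The widest of them was thus the lowest in score. The RefSeq start site of the promoter sequence lies inside the span, and the nearest H1foo peak was 713 bp from that sequence. This promoter is printed because it was the member promoter with the letters TTCNNNGAA, the palindromic half-sites that STAT dimers are known to recognise, so the same letters read on both strands. It is given 5′ to 3′ on the minus strand of GRCm38.p6, from RefSeq, with the match in capitals.
Socs3 promoter, chr11:117969317-117969616: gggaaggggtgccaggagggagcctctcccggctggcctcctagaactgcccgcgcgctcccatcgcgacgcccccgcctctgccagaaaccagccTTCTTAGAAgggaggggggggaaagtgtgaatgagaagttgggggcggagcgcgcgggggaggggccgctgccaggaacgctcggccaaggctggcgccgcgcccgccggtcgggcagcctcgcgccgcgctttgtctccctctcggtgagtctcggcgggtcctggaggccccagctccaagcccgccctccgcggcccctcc
The 300 bases run from 250 before to 50 after the start site, and the match is at bases 97 to 105. Of all 32851 promoter sequences of this length in the table, 2726 or 8.30% hold the letters, and of the 10 sequences of the 8 members 1 did. No peak of either list overlapped the match. The motif is a description of the letters and no evidence of a bound factor.

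The targets Pim1 and Gbx2 also carried H1foo peaks without AE4 peaks. Pim1, a serine/threonine kinase gene, had 2. The first, at chr17:29489914-29490359 (446 bp, score 53.9), ended 175 bp before the first Pim1 promoter sequence and overlapped the lncRNA gene Gm26885. The second, of 359 bp and with a score of 88.3, lay in the gene near its 3′ end. Gbx2 had 6 H1foo peaks on its flanks, 2 upstream and 4 downstream, and none that touched the span of 3215 bp. Scores ran from 63.1 to 111.5 and the widest peak had 837 bp. The window also holds LOC102637806, a protein-coding gene on the other strand that begins 898 bp away.

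Gbx2 was the member whose promoter sequence was overlapped by a peak. The H1foo peak chr1:89931257-89931893 (637 bp, score 87.55) covered the outer 170 of the 300 bases, in capitals below, and stopped before the start site. The sequence is from RefSeq on the minus strand of GRCm38.p6, 5′ to 3′.
Gbx2 promoter, chr1:89931127-89931426: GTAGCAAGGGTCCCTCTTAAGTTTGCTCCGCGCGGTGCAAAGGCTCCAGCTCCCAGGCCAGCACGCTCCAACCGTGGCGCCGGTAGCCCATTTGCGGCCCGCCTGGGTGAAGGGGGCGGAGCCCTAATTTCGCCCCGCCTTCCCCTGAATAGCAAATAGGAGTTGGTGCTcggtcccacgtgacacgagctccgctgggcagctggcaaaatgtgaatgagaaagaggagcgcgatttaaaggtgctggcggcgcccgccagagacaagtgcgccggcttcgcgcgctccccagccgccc
A promoter sequence overlapped by an H1foo peak was found at 14.4% of the 17492 protein-coding genes with a sequence in the table, so 1 of 8 is near the background. An AE4 peak overlapped the promoter sequence of 0 of the 8 and of 2.66% of these 17492 genes. The sequence has a GC content of 64.7%, and the 10 member sequences ranged from 49.0 to 81.3%. The first sequence of Pim1 and the first of Lifr were highest at 81.3% each, and neither was overlapped by a peak.

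The distance of peaks from promoters was taken next. An H1foo peak lay within 1 kb of a promoter sequence, or on it, at 6 of the 8 genes, at Lif, Lifr, Stat3, Socs3, Pim1 and Gbx2. Of the 17492 protein-coding genes with a promoter sequence, 26.9% had such a peak. The distance from the promoter sequence was 927 bp at Lif, 233 bp at Stat3, 713 bp at Socs3 and 0 at Gbx2. Lifr and Pim1 have 2 sequences each. At Lifr the first was 11152 bp and the second 182 bp from the nearest H1foo peak, and at Pim1 the first was 175 bp and the second 2475 bp from it. At Il6st it was 3603 bp and at Jak1 25070 bp. An AE4 peak lay within 1 kb at 0 of the 8. As 7.04% of the genes with a promoter sequence had one, 0 of 8 does not set these genes apart. The nearest was at 3170 bp, at Stat3. The reach of 1 kb was chosen after these distances had been seen, and Lif falls just within it. The 6 of 8 beside 26.9% is therefore a description and no sign of enrichment. The H1foo peaks nearest to the promoters of Lif, Stat3, Socs3 and Pim1 had scores below 75, and those at Lifr and Gbx2 above it. The H1foo list is the longer one, so the shares of the 2 lists are not compared.

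Peaks of the 2 lists in the 5 kb windows of these genes were seldom at the same place. Of the H1foo peaks in the 8 windows, 3 of 58 or 5.17% overlapped an AE4 peak (Wilson 95% interval 1.77 to 14.1%), where 25.4% of the 74622 H1foo peaks in the windows of all protein-coding genes did. Of the AE4 peaks, 3 of 13 or 23.1% overlapped an H1foo peak (8.18 to 50.3%), where 56.3% of 34690 did. The intervals cover counting error only, and neighbouring peaks of a gene are not independent. Without Stat3 the shares in the 5 kb windows were 0 of 46 for H1foo and 0 of 4 for AE4. The Wilson intervals reach 7.71% for H1foo and 49.0% for AE4, and the limit of 3 counts gives 6.52% and 75%. The 2 limits for AE4 lie on either side of the 56.3% of all gene windows. The AE4 peaks outside Stat3 are thus too few to set against it. A shared H1foo peak was present at 1 of the 8 genes and at 34.8% of all genes. Of the 58 H1foo peaks, 37 or 63.8% were over 5 kb from any AE4 peak, against 33.1% of H1foo peaks in all gene windows. The median distance was 7074 bp, against 2022 bp for H1foo peaks in all gene windows.

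Genes with as many H1foo peaks as Lif, Lifr, Il6st and Stat3 usually shared some with AE4. At least 9 H1foo peaks were found at 4 of the 8 genes and at 15.2% of all genes. Of the 3306 genes with at least 9, 221 or 6.68% had no shared peak, and of the 1576 with 9 to 12 it was 10.3%. Lif, Lifr and Il6st were among these genes without a shared peak. The genes with at least 9 held a median of 6 AE4 peaks, those with 9 to 12 a median of 4, and the 4 members 1.5. The genes were thus alike in H1foo peaks only, and genes alike in AE4 peaks were not compared. The limits of 9 and 12 were set to those of the members after their counts were known.

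Sharing was also counted in the surroundings of the same genes. In the 500 kb on either side of the 8 windows, 293 of 1197 H1foo peaks or 24.5% overlapped an AE4 peak (22.1 to 27.0%), and 296 of 484 AE4 peaks or 61.2% overlapped an H1foo peak (56.7 to 65.4%). These pooled shares rest mostly on Stat3, Socs3 and Pim1, whose surroundings hold most of the peaks. By gene, the H1foo share in the surroundings was 30.1% at Socs3, 29.6% at Stat3, 22.7% at Lif, 18.9% at Gbx2, 18.7% at Pim1 and 14.5% at Il6st. At Lifr it was 12.5% (2 of 16) and at Jak1 5.88% (1 of 17), so both rest on few peaks. At Stat3 the H1foo share of the window, with 25.0%, was close to that of its surroundings. Its AE4 share was 33.3% (3 of 9, Wilson interval 12.1 to 64.6%), against 73.0% of the 111 AE4 peaks around it. The other 7 windows held no shared peak. Around Socs3 there were 345 H1foo and 156 AE4 peaks, and around Pim1 273 and 88, although neither window held an AE4 peak. H1foo density in the window was 4.54 peaks per 10 kb at Gbx2 against 0.53 in its surroundings, 4.41 against 1.54 at Lif, 1.70 against 0.69 at Il6st and 0.941 against 0.16 at Lifr. The value of Gbx2 rests on its flanks, as no peak touched the gene. At Jak1 it was 0.243 against 0.17. At the other 3 genes the window was the less dense, with 1.91 against 2.70 at Stat3, 2.81 against 3.45 at Socs3 and 1.30 against 2.73 at Pim1. For AE4 the window was denser than its surroundings at Stat3 (1.43 against 1.11) and at Lifr (0.171 against 0.07). These are single windows with few peaks, and no test was made of them.

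**Figure D3:**
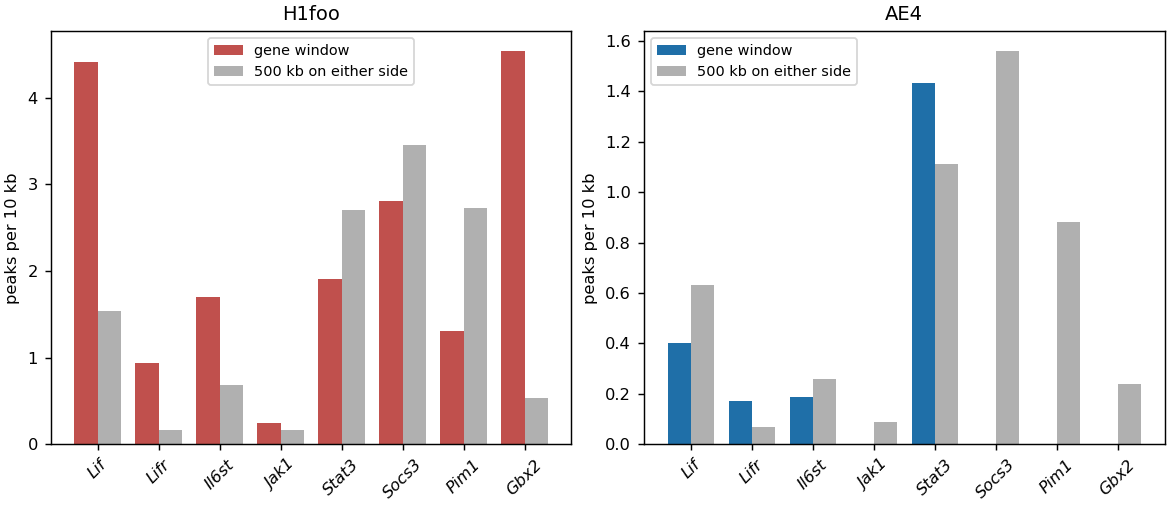
Peaks per 10 kb in the window of each gene (coloured bars) and in the 500 kb on either side of it (grey bars), for H1foo on the left and AE4 on the right, each with its own axis. For H1foo the window bar is the higher one at Lif, Lifr, Il6st, Jak1 and Gbx2. For AE4 it is the higher one at Lifr and Stat3.

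The peaks themselves were of ordinary size. The 58 H1foo peaks had a median width of 591.5 bp and a median score of 73.8, and those in the windows of all genes had 573 bp and 74.7. A score of at least 100 was reached by 14 of the 58 or 24.1%, and by 28.6% of the H1foo peaks in all gene windows. The 13 AE4 peaks had a median width of 488 bp and a median score of 68.9, against 475 bp and 64.9. Lif held 4 of the 14 high H1foo scores, Il6st 3, Stat3 3, Lifr 2 and Gbx2 2, while Jak1, Socs3 and Pim1 held none.

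**Figure D4:**
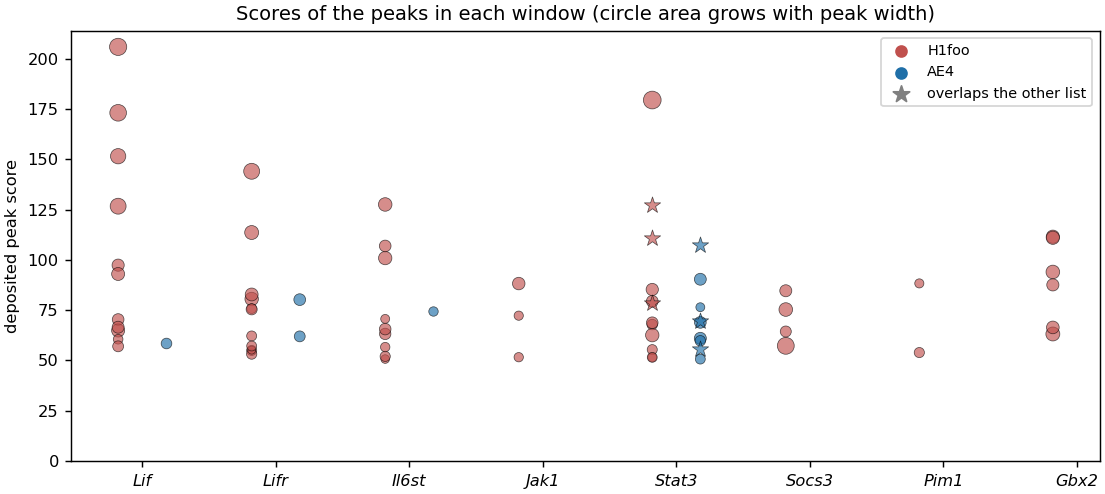
Deposited score of each peak in the 8 windows, with H1foo in red and AE4 in blue beside it. Circle area grows with peak width, and stars mark peaks that overlap the other list. The highest H1foo score is 206 at Lif and the highest AE4 score 107.6 at Stat3.

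A list of 50 further genes of the LIF, gp130, JAK and STAT pathway gave a wider view. An H1foo peak was present in the windows of 43 or 86.0%, where 62.6% of all genes had one. An AE4 peak was present in 32 or 64.0%, against 51.0% of all genes, and a shared H1foo peak in 26 or 52.0%, against 34.8%. The median H1foo density was 1.72 peaks per 10 kb and that of AE4 0.349, against 1.81 and 0.0856 for the 8 genes. The H1foo median of the 8 was therefore close to that of their pathway, while 1 of the 8 had a shared peak. The list was chosen with earlier results of these data known, and no test of these differences was made. The most H1foo peaks were at Gab1, an adaptor, with 24 H1foo and 13 AE4 peaks, at Grb2, an adaptor towards Ras, with 23 and 8, and at Stat5b with 19 and 11. The densest were Stat6 with 5.71 H1foo peaks per 10 kb, Jak3 with 4.96 and Stat5a with 4.75. No peak of either list was found at the ligands Il6 and Cntf, the receptor Osmr, the kinase Jak2 and the targets Klf5 and Myc.

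By role, the 14 inhibitors, which include the other Socs genes, the Pias genes and phosphatases, all had an H1foo peak, 11 had an AE4 peak and 8 a shared one. The shares over all genes were 62.6%, 51.0% and 34.8%. Of the 6 further STAT genes, 5 had an H1foo peak, 6 an AE4 peak and 4 a shared one. Of the 14 targets in stem cells, 12 had an H1foo peak, 5 an AE4 peak and 4 a shared one, so for shared peaks and AE4 they were not above all genes. Pim3, a paralogue of Pim1, had 4 H1foo and 3 AE4 peaks, and Pim1 had 2 and 0. Pias4, named here for its values, had 7 H1foo and 11 AE4 peaks and was with Stat4 (0 and 1) one of the genes with more AE4 peaks.

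**Figure D5:**
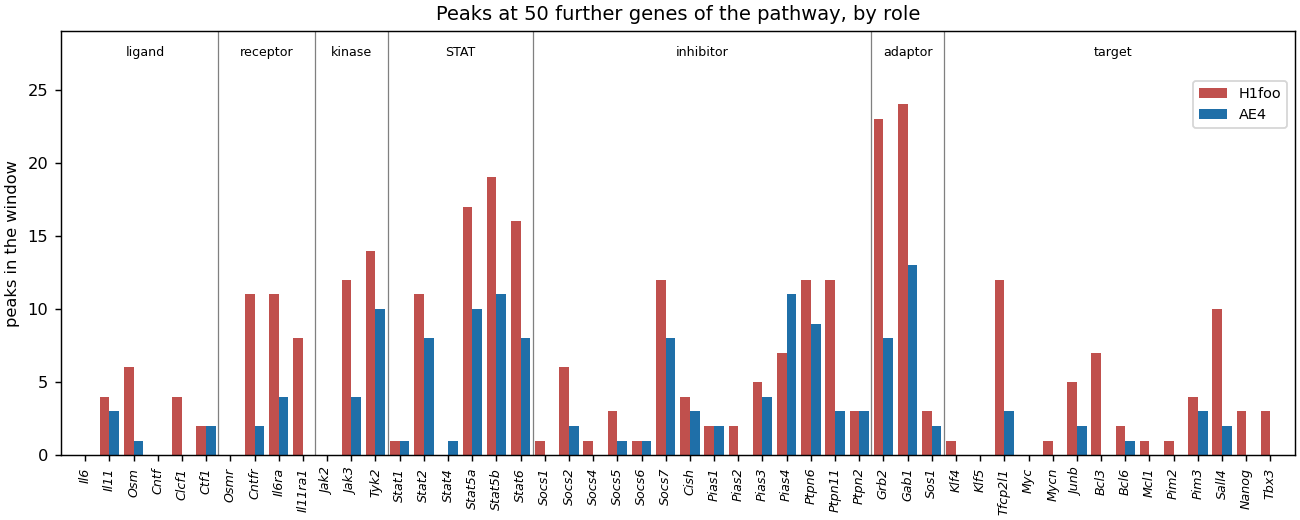
Number of H1foo peaks (red) and AE4 peaks (blue) in the windows of 50 further genes of the pathway, ordered by role. The highest H1foo bars are those of Gab1 with 24, Grb2 with 23 and Stat5b with 19, and 6 genes have no bar.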

How the data were processed

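ChIP-seq was performed with 2 libraries per antibody. The authors used Bowtie 1.1.2 and the build mm10, per the submitters' processing notes, and MACS for peak calling, per the file headers. The authors deposited 1 peak list per antibody with a score per peak, whose scale the files do not name. The sources used here do not say how libraries were combined or whether an input was used.

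Starts were converted to positions counted from 1. Gene spans, strands and promoter sequences came from RefSeq tables on GRCm38.p6 (the chromosome coordinates are those of mm10). Strand and promoters were available for 17492 of 21774 protein-coding genes and for all 8 members. Exons were not used here. Sharing meant at least 1 bp in common. The background was the same count over all protein-coding genes, whose windows can overlap. Intervals are Wilson 95% intervals, and a count of 0 was also given the limit of 3 counts. Peaks named per gene were the highest in score and the widest of each list. In the further list, the 3 genes with the most H1foo peaks, the 3 densest and those without peaks were named, and other genes were added after their values were seen. The members and lists were chosen with earlier results of these data known. Interval counting was tested on simulated data. Python 3.11.15, pandas 2.3.3 and SciPy 1.17.1 were used.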

Additional observations from a re-analysis of the deposited data

How the results depend on the processing

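With no flank, the numbers were 40 H1foo and 10 AE4 peaks at 7 and 3 genes, and the median AE4 density became 0. Gbx2 was the gene left without an H1foo peak. With 10 kb there were 72 H1foo and 21 AE4 peaks, AE4 peaks at 7 genes, and a median AE4 density of 0.413 peaks per 10 kb. The statement that 4 members lack AE4 peaks therefore holds for the 5 kb window, and Jak1 alone lacked them at 10 kb. The share of H1foo peaks that overlapped an AE4 peak was 5.0% with no flank and 12.5% with 10 kb. With a score of at least 75 in both lists, 29 H1foo peaks remained at 8 genes and 4 AE4 peaks at 2, with median densities of 0.804 and 0. Shares over all genes are given for the 5 kb window without a score minimum only, so these alternative numbers have no background. Assigning peaks by their centre removed 2 H1foo peaks, at Stat3 and Gbx2. Where 50% or more of a peak had to be covered, 1.72% of H1foo peaks and 23.1% of AE4 peaks were shared. Of the 16 counts per gene and list, 5 changed by over 1.5 times with no flank, 5 with 10 kb and 11 with the score minimum, and none with the centre rule. Without Stat3, an alternative chosen after seeing the data, 4 AE4 peaks were left, both shares were 0 and the median AE4 density was 0. This alternative used the 5 kb flank only. With 10 kb, 9 AE4 peaks were shared, while Stat3 held 10 AE4 peaks against 9 with 5 kb. Other members then had shared peaks too, so sharing at Stat3 alone holds for the 5 kb window. The nearest H1foo peaks left out lay 83 and 190 bp beyond the edges of the Lif window. No paired analysis was possible because the lists hold no value per library, and replicates could not be left out for the same reason. Peaks below the caller's threshold are not in the lists, so a gene without a peak is not shown to lack the protein. Whether AE4 also binds H1foo was not tested.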

Other observations

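Relatives of the members lie beside them. Osm, the gene of oncostatin M, a cytokine related to LIF, lies 16541 bp from Lif on chromosome 11. Its window held 6 H1foo peaks, or 4.21 per 10 kb, and 1 AE4 peak, which overlapped an H1foo peak. The 2 ligand genes thus had nearly the same H1foo density, 4.41 at Lif and 4.21 at Osm, and a shared peak was seen at Osm and not at Lif. Osmr, on the same chromosome as Lifr and 215641 bp from it, had no peak of either list, while Lifr had 11 H1foo and 2 AE4 peaks.

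Stat3, Stat5a and Stat5b form a row on chromosome 11. Stat5a had 17 H1foo and 10 AE4 peaks in its window, of which 7 and 8 were shared. Stat5b had 19 and 11, of which 4 and 5 were shared, and Stat3 had 12 and 9, of which 3 and 3 were shared. The windows of Stat5a and Stat5b overlap, so a peak in the common part counts for both genes. The windows of Stat3 and Stat5a overlap as well, and all 3 shared peaks of each list at Stat3 are among those counted at Stat5a. No test of these differences was made.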
